A study of Mus musculus with 44 samples.

Results

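Skin from 44 female C57Bl/6 wild-type mice was profiled by mRNA sequencing, and 36 genes of the antiviral programme that type I interferon switches on are described here one by one. The genes were named individually as well-known interferon-stimulated genes, with earlier results of these data known. All 36 are among the 43411 genes of the table and among the 17037 genes that were expressed highly enough to be tested. The mice were 8 weeks old and received daily subcutaneous injections of 100 µL into the back skin: 10 mice received saline, 10 received bleomycin for 2 weeks and 10 for 4 weeks, and 6 and 8 mice received bleomycin for 4 weeks and were then left untreated for 6 or 10 weeks of recovery. Bleomycin, given at 1 U/mL per the labels, is a drug that breaks DNA and is used to produce fibrosis of the skin in mice. No transgene or mutant allele is named for any group, each library is one mouse, and the tissue is whole back skin, so that a change in the number of cells of a type and a change in RNA per cell cannot be told apart. When the saline mice were harvested is not given in the sources used here, so age at harvest and recovery cannot be told apart either. Keratinocyte genes were abundant in every mouse (summed normalized counts of Krt5, Krt14, Krt1, Krt10 and Dsp between 105000 and 231300), as skin tissue should show.

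Type I interferons bind the receptor made of IFNAR1 and IFNAR2. The signal reaches the nucleus through a complex that contains STAT2 and IRF9 and binds the interferon-stimulated response element (ISRE) in the promoters of target genes. The targets include sensors of foreign nucleic acid, enzymes and RNA-binding proteins that block viral replication, IRF7, which amplifies interferon production, and USP18, which dampens signalling at the receptor. In skin this programme is known from viral infection, from lupus and from systemic sclerosis.

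Promoter sequence was looked up first, because all of these genes are described as targets of the same complex. Promoters of 26 of the 36 genes were matched by symbol in the RefSeq table (GRCm38.p6, 250 bases before to 50 bases after the start site). The core of an ISRE, searched as GAAA, any 2 bases and GAAA, stood on either strand in 14 of the 26 genes (53.85%), and in 3.99% of all 27025 genes with a promoter of that length. The core of a GAS site, the element of interferon gamma responses, searched as TTC, any 3 bases and GAA on either strand, was in 5 of the 26 (19.23%), against 9.55% of all genes. A match of each motif shared bases in Bst2 alone. Stretches before the start site are printed for 6 strongly induced genes of the IFIT, ISG15, OAS and viperin groups, to show overlapping, separate and single ISRE matches, with the matches in capitals; a match is a description of the letters and not a proven binding site. In Isg15 the 3 matches overlap in one run, whereas Ifit1 has 2 separate matches.
Isg15, chr4:156200845-156200916, minus strand: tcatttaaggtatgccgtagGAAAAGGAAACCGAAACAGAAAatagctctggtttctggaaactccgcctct
Ifit1, chr19:34640765-34640843, plus strand: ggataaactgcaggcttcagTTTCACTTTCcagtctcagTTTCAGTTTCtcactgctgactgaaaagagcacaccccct
Ifit3, chr19:34583353-34583446, plus strand: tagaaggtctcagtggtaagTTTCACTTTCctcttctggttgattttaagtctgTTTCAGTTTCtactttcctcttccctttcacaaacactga
Ifit3b, chr19:34607749-34607842, plus strand: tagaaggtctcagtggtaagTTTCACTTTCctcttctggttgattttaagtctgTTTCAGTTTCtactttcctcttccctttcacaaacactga
Oas3, chr5:120777695-120777754, minus strand: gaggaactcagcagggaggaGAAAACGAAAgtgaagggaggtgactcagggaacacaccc
Rsad2, chr12:26456533-26456592, minus strand: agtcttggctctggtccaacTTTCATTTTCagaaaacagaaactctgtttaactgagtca
The printed stretches of Ifit3 and Ifit3b are the same over all 94 bases. Irf7, which was among the most induced of all the genes, has no such match in its promoter, and the 100 bases that lie just before its annotated start are shown for contrast.
Irf7, chr7:141266482-141266581, minus strand: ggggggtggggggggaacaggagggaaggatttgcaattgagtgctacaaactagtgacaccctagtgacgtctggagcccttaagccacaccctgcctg
The ISRE core was also absent from the matched promoters of Ifit2, Oasl1, Oasl2, Irf9, Ifi44, Ifi35, Cmpk2, Xaf1, Uba7, Sp100 and Herc6. Matches were present in Oas1a, Oas1g, Stat2, Bst2, Ddx58, Ifih1, Trim30a and Eif2ak2. Mx1, Mx2, Oas1b, Oas2, Usp18, Ifi27, Dhx58, Zbp1, Rtp4 and Parp14 had no entry in the table.

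Bleomycin raised nearly the whole programme. At 2 weeks 35 of the 36 genes were higher than in saline skin (fold change above 1.5 and adjusted p below 0.05 by limma), where 9.3% of all tested genes were called higher. At 4 weeks 35 were again higher, against 10.5% of all tested genes. The median log2 difference of the 36 genes was 2.34 at 2 weeks (range 0.44 to 3.60) and 2.18 at 4 weeks (range 0.38 to 3.07), while the median over all tested genes was 0.003 and -0.001. For each of the 35 genes the lowest of the 10 bleomycin mice lay above the highest of the 10 saline mice at both times; such separation was seen for 3.44% and 4.31% of all tested genes. Ifi27 was the exception in both comparisons.

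After bleomycin was stopped the genes fell. At 6 weeks of recovery 34 of 36 were lower than at 4 weeks of bleomycin (7.14% of all tested genes were called lower), and at 10 weeks of recovery 35 were (9.1% of all tested genes). The median log2 difference from the 4-week mice was -1.48 at 6 weeks of recovery and -1.91 at 10 weeks. Against saline skin, 10 of the 36 genes were still higher at 6 weeks of recovery, where 3.33% of all tested genes were called higher, and 3 were still higher at 10 weeks, where 2.05% were. The 36 genes had a median log2 difference from saline of 0.39 at 6 weeks of recovery (range -0.06 to 1.17) and 0.12 at 10 weeks (range -0.36 to 0.85).

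**Figure D1:**
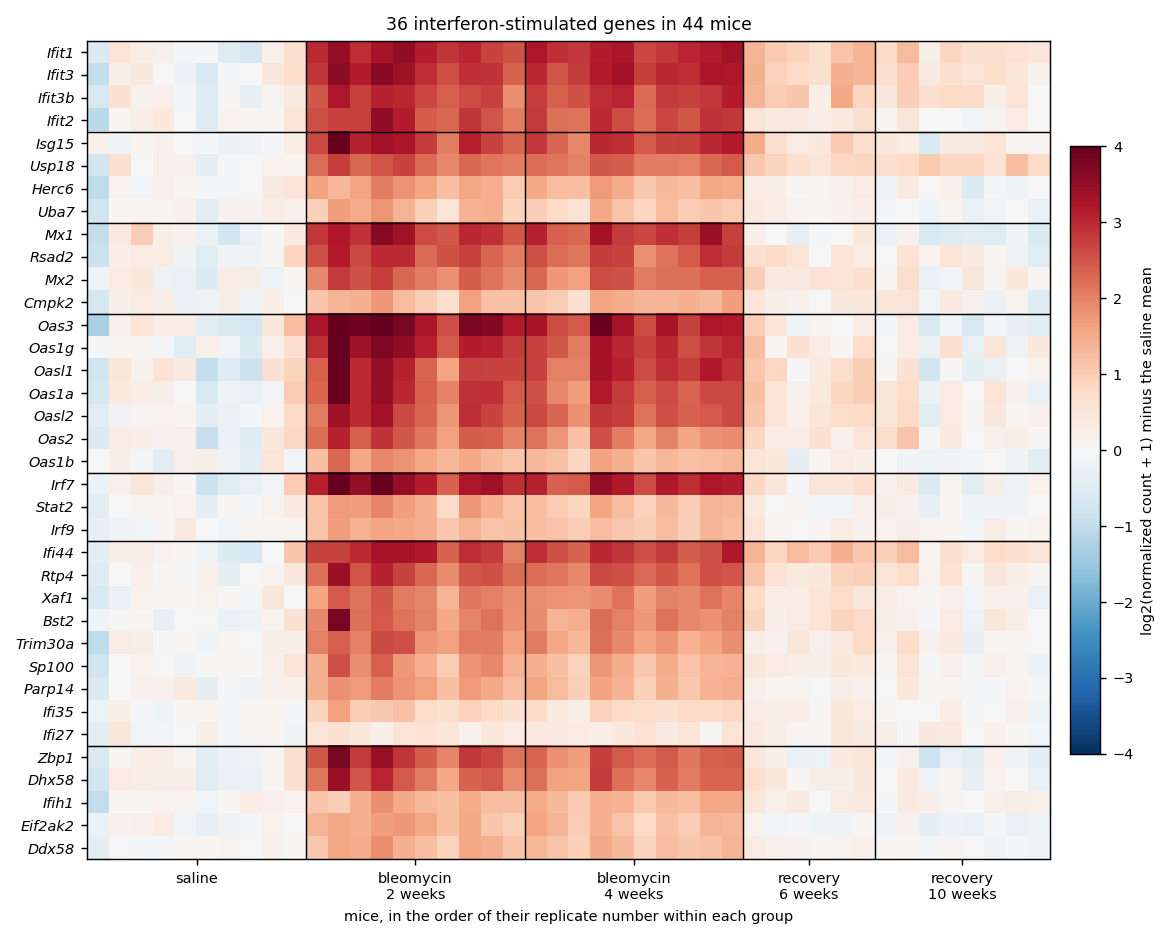
Each column is 1 of 44 mice and each row 1 of 36 genes, grouped by role from top to bottom (IFIT family, ISG15 system, MX GTPases with viperin and its neighbour, synthetases of the OAS family, transcription factors, other effectors, sensors) with the largest rise at 4 weeks first. Colour gives log2(normalized count + 1) minus the mean of the 10 saline mice, with colours capped at 4 in either direction. The 20 bleomycin columns are red in most rows and on average palest in those of Ifi27 and Ifi35. The 14 recovery columns are mostly pale, with a faint red in rows such as Ifit1, Ifit3, Usp18 and Ifi44.

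Levels differed widely between the genes before treatment. Per kilobase of exon, mean normalized counts in saline skin ran from 4.64 for Ifi44 to 833 for Ifi27, and the interferon-induced membrane protein gene Bst2 came next to Ifi27 with 391. At 4 weeks Bst2 had the highest level per kilobase (1428), followed by Ifi27 (1077), Ifit3 (863) and Isg15 (825.5). Herc6 was then lowest per kilobase, with 27.8, next to Ifi44 with 30.15. The gene that rose least, Ifi27, was the most abundant per kilobase in saline skin.

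The 4 genes of the IFIT family, which encode RNA-binding proteins that recognise foreign RNA ends and block translation, all rose. The lowest, median and highest normalized counts of Ifit1 were 49.3, 84.8 and 124 in saline skin, 468, 657 and 954 at 2 weeks of bleomycin, 513, 686.5 and 819.7 at 4 weeks, 125, 172 and 208 at 6 weeks of recovery, and 94.9, 124 and 194 at 10 weeks of recovery. The saline mice lay below every mouse of the 2-week, 4-week and 6-week recovery groups, and at 10 weeks of recovery 4 of 8 mice still exceeded the highest saline mouse. In the fit Ifit1 was 8.25-fold higher at 4 weeks (log2 difference 3.05, SE 0.15, adjusted p = 1.64e-20), 2.11-fold higher at 6 weeks of recovery (adjusted p = 2.97e-05) and 1.61-fold higher at 10 weeks (log2 difference 0.68, SE 0.15, adjusted p = 0.00502). Ifit3 ran from 94.2 to 298 normalized counts in saline mice (median 184), from 952 to 2285 at 2 weeks (median 1414), from 1053 to 1894 at 4 weeks (median 1491), from 285 to 494 at 6 weeks of recovery (median 409) and from 204 to 369 at 10 weeks of recovery (median 274). Of the 6 mice at 6 weeks of recovery, 5 exceeded the highest saline mouse. The log2 difference of Ifit3 from saline was 3.01 (SE 0.16) at 4 weeks and 1.09 (adjusted p = 0.000112) at 6 weeks of recovery; at 10 weeks it was 0.57 with an adjusted p of 0.0389, which passed the p threshold and stayed under the 1.5-fold threshold. In saline skin Ifit3b lay between 33.4 and 79.9 normalized counts with a median of 56.2, against 194 to 505 (median 347) at 2 weeks, 258 to 467.5 (median 367) at 4 weeks, 63.7 to 151 (median 111) at 6 weeks of recovery and 53.3 to 104 (median 80.5) at 10 weeks. Its course matched that of Ifit3, with log2 differences of 2.74, 1.02 and 0.56 at the same 3 times. These neighbours cannot be read as independent genes: 51.2% of the 50-base windows of Ifit3 transcripts also occur in another gene and 45.0% of those of Ifit3b do, so reads may have been split between them. Ifit2 ran from 50.1 to 158 normalized counts in saline mice (median 115), from 449.5 to 1272 at 2 weeks (median 684), from 495 to 869 at 4 weeks (median 680.2), from 129.5 to 168 at 6 weeks of recovery (median 139.9) and from 99.6 to 149.9 at 10 weeks of recovery (median 109.7). Ifit2 rose the least of the family (6.03-fold at 4 weeks), and its recovery values lay almost wholly inside the saline range: the log2 difference was 0.42 at 6 weeks (95% interval 0.06 to 0.77, adjusted p = 0.125) and 0.10 at 10 weeks (-0.23 to 0.43).

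Isg15 encodes a ubiquitin-like modifier that is joined to proteins by the activating enzyme Uba7 and the ligase Herc6, and Usp18 encodes the protease that removes it and that also restrains the interferon receptor. In saline skin Isg15 lay between 77.3 and 113 normalized counts with a median of 89.3, against 389.8 to 1557 (median 716) at 2 weeks, 348 to 827 (median 639) at 4 weeks, 117 to 258 (median 146) at 6 weeks of recovery and 59.2 to 136 (median 115) at 10 weeks. The saline mice varied little, and all 6 mice at 6 weeks of recovery were above them. Its fold change was 6.54 at 4 weeks (log2 difference 2.71, SE 0.17, adjusted p = 1.02e-16) and 1.71 at 6 weeks of recovery (adjusted p = 0.0106), and the interval of the log2 difference at 10 weeks was -0.18 to 0.57. Isg15 and Ifit1 were the 2 genes of the 36 whose 6-week recovery mice did not overlap the saline mice at all, where 1.41% of all tested genes were separated in that direction; at 10 weeks of recovery none of the 36 was separated upward (0.282% of all tested genes). The lowest, median and highest normalized counts of Usp18 were 51.3, 91.2 and 137 in saline skin, 335, 429.6 and 605 at 2 weeks of bleomycin, 347, 403.5 and 496 at 4 weeks, 126, 157 and 188 at 6 weeks of recovery, and 131, 156 and 204 at 10 weeks of recovery. In both recovery groups the medians were nearly equal, and 5 of 6 and 7 of 8 mice lay above the highest saline mouse. Usp18 was 4.64-fold higher than saline at 4 weeks, 1.75-fold at 6 weeks of recovery (log2 difference 0.81, SE 0.13, adjusted p = 7.36e-05) and 1.80-fold at 10 weeks (log2 difference 0.85, SE 0.12, adjusted p = 1.64e-05). It was the gene with the largest difference from saline at 10 weeks. Uba7 ran from 205 to 437 normalized counts in saline mice (median 393), from 515 to 1230 at 2 weeks (median 933), from 541 to 1058 at 4 weeks (median 719), from 369 to 473 at 6 weeks of recovery (median 416) and from 301 to 389 at 10 weeks of recovery (median 336.5). Uba7 rose the least of the ISG15 system (2.04-fold at 4 weeks) and was back within 1.5-fold of saline at both recovery times (intervals of -0.08 to 0.51 and -0.37 to 0.18). Herc6 rose 2.60-fold at 4 weeks, with log2 differences of 0.21 and -0.05 in recovery. At 6 weeks of recovery the modifier and the protease were called higher and the activating enzyme and the ligase were within 1.5-fold; the difference between them was not tested.

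Mx1 and Mx2 encode dynamin-like GTPases that trap viral particles. However, C57BL/6 mice are known to carry a defective Mx1 allele, and Mx2 is annotated as a polymorphic pseudogene, as is Oas1b. Rsad2 encodes viperin, which makes a chain-terminating nucleotide, and Cmpk2, its neighbour on the chromosome, encodes a mitochondrial nucleotide kinase. In saline skin Mx1 lay between 37.0 and 144.5 normalized counts with a median of 80.5, against 411 to 921 (median 552) at 2 weeks, 365 to 792 (median 509) at 4 weeks, 58.3 to 98.2 (median 73.3) at 6 weeks of recovery and 46.15 to 81.8 (median 52.9) at 10 weeks. Mx1 was 7.15-fold higher at 4 weeks (adjusted p = 1.87e-17) and then fell until every recovery mouse lay inside the saline range. The log2 difference was 0.06 (95% interval -0.35 to 0.46) at 6 weeks and -0.36 (-0.73 to 0.01, adjusted p = 0.271) at 10 weeks. The direction at 6 weeks turned to slightly below saline with the count-based tools. Mx2 ran from 16.97 to 34.4 normalized counts in saline mice (median 24.5), from 91.7 to 182 at 2 weeks (median 121.5), from 81.1 to 157.5 at 4 weeks (median 123), from 32.9 to 50.35 at 6 weeks of recovery (median 37.5) and from 20.9 to 41.3 at 10 weeks of recovery (median 27.1). Mx2 was 4.62-fold higher at 4 weeks and 1.51-fold at 6 weeks of recovery, just past the fold threshold (log2 difference 0.59, SE 0.16, adjusted p = 0.0176). At 10 weeks the interval was -0.12 to 0.49. The lowest, median and highest normalized counts of Rsad2 were 42.9, 78.4 and 144 in saline skin, 338, 481 and 727 at 2 weeks of bleomycin, 281, 457 and 618 at 4 weeks, 78.1, 114 and 135 at 6 weeks of recovery, and 56.1, 86.5 and 117.5 at 10 weeks of recovery. All recovery mice were inside the saline range for viperin. The rise at 4 weeks was 5.53-fold, and the log2 differences in recovery were 0.47 (adjusted p = 0.108) and 0.13. In saline skin Cmpk2 lay between 62.0 and 129 normalized counts with a median of 111.5, against 168.5 to 347 (median 238.5) at 2 weeks, 155 to 328 (median 265) at 4 weeks, 103 to 144 (median 129) at 6 weeks of recovery and 71.7 to 147 (median 115) at 10 weeks. Cmpk2 rose less, 2.46-fold at 4 weeks (adjusted p = 2.13e-10), and its interval at 10 weeks of recovery (-0.18 to 0.40) lay within 1.5-fold of saline.

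The OAS genes encode enzymes that make the messenger 2′-5′ oligoadenylate when they meet double-stranded RNA, and thereby switch on RNase L; Oasl1 and Oasl2 are relatives with a ubiquitin-like tail, and C57BL/6 mice are known to carry a truncated Oas1b. All 7 rose at both bleomycin times. Oas3 ran from 16.7 to 101 normalized counts in saline mice (median 50.8), from 259 to 921 at 2 weeks (median 578), from 238 to 678 at 4 weeks (median 401), from 37.55 to 84.65 at 6 weeks of recovery (median 49.6) and from 27.2 to 53.5 at 10 weeks of recovery (median 36.6). Oas3 showed the largest rise of all 36 genes, 12.1-fold at 2 weeks (log2 difference 3.60, SE 0.23, adjusted p = 5.72e-17) and 8.38-fold at 4 weeks. In both recovery groups every mouse was inside the saline range, with log2 differences of 0.30 and -0.24, but the saline values spread over a wide range and the intervals (-0.24 to 0.83 and -0.73 to 0.25) reached past 1.5-fold. The lowest, median and highest normalized counts of Oas1g were 25.2, 37.7 and 60.1 in saline skin, 209.8, 337.5 and 817 at 2 weeks of bleomycin, 161, 265 and 383 at 4 weeks, 39.0, 52.3 and 89.0 at 6 weeks of recovery, and 30.1, 42.1 and 59.7 at 10 weeks of recovery. Oas1g rose 9.62-fold at 2 weeks and 6.89-fold at 4 weeks and was within 1.5-fold of saline at 10 weeks of recovery (interval -0.24 to 0.53). Oas1a and Oas1g also share sequence: 57.6% of the 50-base windows of Oas1a and 45.7% of those of Oas1g occur in another gene. In saline skin Oasl2 lay between 181 and 413 normalized counts with a median of 250.2, against 843 to 2592 (median 1562) at 2 weeks, 872 to 1786 (median 1414) at 4 weeks, 283 to 525 (median 382) at 6 weeks of recovery and 176 to 428 (median 292) at 10 weeks. Oasl2 was the only one of the 7 called higher at 6 weeks of recovery (log2 difference 0.64, SE 0.19, adjusted p = 0.0288), while Oas1a had a larger difference of 0.69 and missed the threshold with an adjusted p of 0.0586. Oas1b ran from 42.2 to 82.4 normalized counts in saline mice (median 55.3), from 124 to 282 at 2 weeks (median 168), from 101 to 175 at 4 weeks (median 137), from 43.5 to 81.0 at 6 weeks of recovery (median 69.1) and from 41.4 to 55.8 at 10 weeks of recovery (median 51.35). Oas1b rose the least of the family, 2.37-fold at 4 weeks, and both recovery intervals (-0.09 to 0.49 and -0.42 to 0.11) stayed within 1.5-fold. Oas1a, Oas2 and Oasl1 had log2 differences of 2.48, 1.86 and 2.76 at 4 weeks and of 0.21, 0.34 and -0.07 at 10 weeks of recovery.

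**Figure D2:**
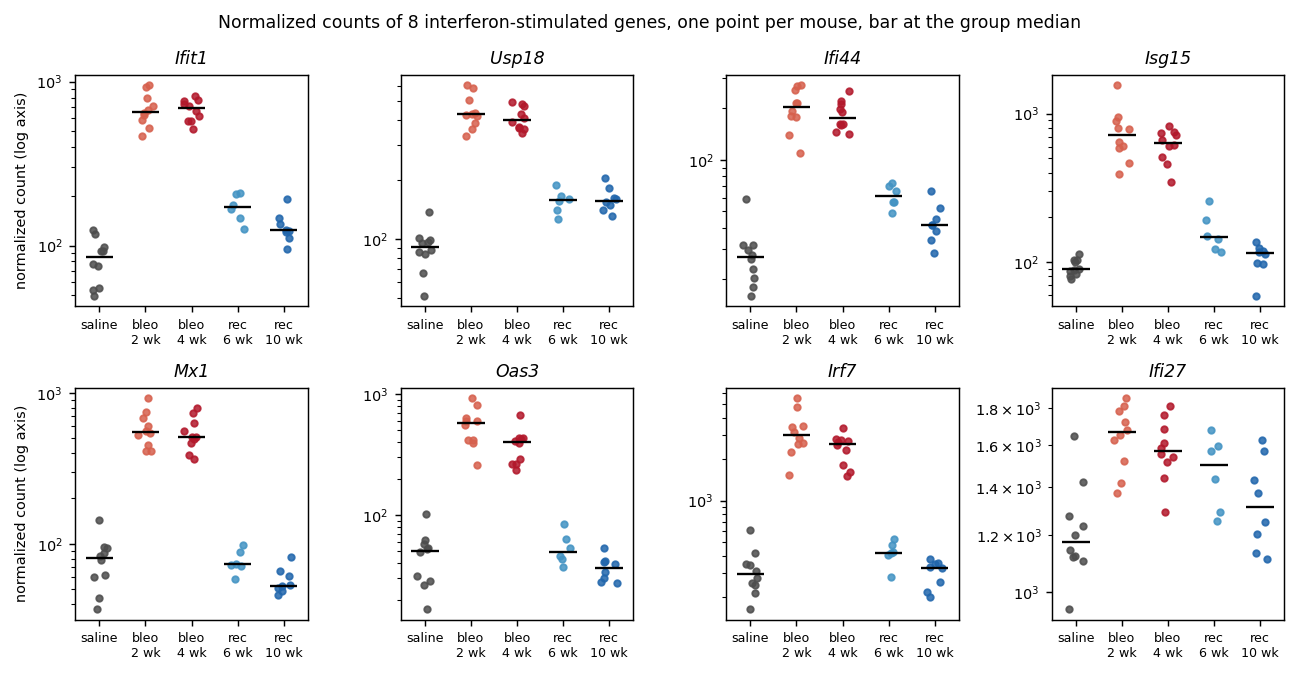
Normalized counts of 8 genes on log axes, with 1 point per mouse and a bar at the group median. For Ifit1 and Isg15 the 6-week recovery mice lie above all saline mice, for Mx1 and Oas3 the recovery mice fall inside the saline range, Usp18 stays near 157 in both recovery groups, and Ifi27 overlaps between all groups.

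Among the transcription factors, Irf7 is itself an interferon target, and Irf9 and Stat2 are parts of the complex that binds the ISRE. In saline skin Irf7 lay between 164 and 608 normalized counts with a median of 293, against 1533 to 5508 (median 3005) at 2 weeks, 1520 to 3385 (median 2586) at 4 weeks, 281 to 529.8 (median 419.9) at 6 weeks of recovery and 199 to 379.9 (median 327) at 10 weeks. Irf7 rose 10.1-fold at 2 weeks (log2 difference 3.34, SE 0.19) and 7.82-fold at 4 weeks (adjusted p = 9.03e-17), second only to Oas3 at 2 weeks. All 14 recovery mice were inside the saline range, and the log2 difference was 0.48 (95% interval 0.03 to 0.92, adjusted p = 0.164) at 6 weeks and -0.02 (-0.43 to 0.38) at 10 weeks. The lowest, median and highest normalized counts of Stat2 were 384, 558 and 677 in saline skin, 909, 1559 and 2048 at 2 weeks of bleomycin, 962, 1238 and 1580 at 4 weeks, 489, 549.5 and 703.5 at 6 weeks of recovery, and 423, 509.5 and 630.4 at 10 weeks of recovery. Stat2 rose 2.27-fold at 4 weeks (log2 difference 1.18, SE 0.11). Irf9 ran from 403 to 655 normalized counts in saline mice (median 511), from 1080 to 1601 at 2 weeks (median 1314), from 1003 to 1308 at 4 weeks (median 1151), from 507 to 742 at 6 weeks of recovery (median 557) and from 471 to 627 at 10 weeks of recovery (median 561). The rise of Irf9 was 2.22-fold, with the smallest SE of the 36 genes (0.08). Stat2 and Irf9 were within 1.5-fold of saline at both recovery times; the intervals of Irf9 were 0.02 to 0.38 and -0.03 to 0.29.

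The nucleic acid sensors included Zbp1, which binds Z-form nucleic acid and can trigger necroptosis, the RNA helicases Ddx58 (RIG-I), Ifih1 (MDA5) and Dhx58 (LGP2), and Eif2ak2 (PKR), which stops translation on double-stranded RNA. All 5 rose at 2 and 4 weeks, and the 2 largest rises were those of Zbp1 and Dhx58. In saline skin Zbp1 lay between 89.4 and 209 normalized counts with a median of 142, against 524 to 1907 (median 909) at 2 weeks, 429 to 917.5 (median 695) at 4 weeks, 111 to 190.5 (median 169) at 6 weeks of recovery and 74.9 to 154 (median 115) at 10 weeks. Zbp1 was 6.71-fold higher at 2 weeks and 4.79-fold at 4 weeks (log2 difference 2.26, SE 0.17, adjusted p = 2.75e-14). Dhx58 ran from 51.3 to 139.9 normalized counts in saline mice (median 99.4), from 256 to 965 at 2 weeks (median 474), from 269 to 615 at 4 weeks (median 413), from 93.9 to 143 at 6 weeks of recovery (median 112) and from 70.45 to 117 at 10 weeks of recovery (median 87.0). The rise of Dhx58 was 4.41-fold at 4 weeks, and its log2 difference at 10 weeks of recovery was -0.03 (-0.39 to 0.34). Ddx58 ran from 255 to 371 normalized counts in saline mice (median 333), from 618 to 1195 at 2 weeks (median 885), from 607 to 934 at 4 weeks (median 747.5), from 352 to 411 at 6 weeks of recovery (median 370.0) and from 295 to 345 at 10 weeks of recovery (median 325). Ddx58 had the smallest rise of the sensors at 4 weeks, 2.30-fold (log2 difference 1.20, SE 0.08), and both recovery intervals lay within 1.5-fold. Ifih1 and Eif2ak2 rose 2.52-fold and 2.33-fold at 4 weeks. In the limma fit Eif2ak2 was the 1 gene below saline at 6 weeks of recovery (-0.06, 95% interval -0.28 to 0.16). No sensor was called higher in recovery by limma, edgeR or DESeq2; by limma Ddx58 and Ifih1 had an unadjusted p below 0.05 at 6 weeks and no sensor had one at 10 weeks.

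The remaining 9 genes are effectors of varied kinds. Ifi44 is a cytoplasmic protein of partly known function, Rtp4 a chaperone-like protein, Bst2 (tetherin) holds budding virus at the cell surface, and Ifi27 is a small mitochondrial membrane protein. Ifi44 ran from 16.05 to 59.1 normalized counts in saline mice (median 27.0), from 110.3 to 273.5 at 2 weeks (median 203), from 141 to 253 at 4 weeks (median 177), from 48.9 to 72.8 at 6 weeks of recovery (median 61.5) and from 28.7 to 65.6 at 10 weeks of recovery (median 41.8). Ifi44 had the largest difference from saline at 6 weeks of recovery, 2.25-fold (log2 difference 1.17, SE 0.20, adjusted p = 7.62e-05), and was 1.56-fold higher at 10 weeks (log2 difference 0.65, SE 0.18, adjusted p = 0.0239). Saline replicate 10, at 59.1, stood above the other 9 saline mice, so that only 3 of 6 and 1 of 8 recovery mice exceeded the saline maximum. In saline skin Rtp4 lay between 84.65 and 160.5 normalized counts with a median of 122, against 452 to 1340 (median 685) at 2 weeks, 456.5 to 764 (median 631.5) at 4 weeks, 159 to 268 (median 201.5) at 6 weeks of recovery and 125 to 199 (median 156.5) at 10 weeks. Rtp4 was 5.11-fold higher at 4 weeks and 1.66-fold at 6 weeks of recovery (adjusted p = 0.00233); at 10 weeks 4 of 8 mice exceeded the saline maximum, with a log2 difference of 0.36 (adjusted p = 0.142). Bst2 ran from 279 to 531 normalized counts in saline mice (median 351), from 988 to 4796 at 2 weeks (median 1479), from 903.5 to 1643 at 4 weeks (median 1304), from 417 to 652 at 6 weeks of recovery (median 548) and from 299.6 to 480.3 at 10 weeks of recovery (median 400.3). The 2-week value of 4796 belonged to replicate 2 alone. Bst2 was 3.64-fold higher at 4 weeks and 1.53-fold at 6 weeks of recovery (log2 difference 0.62, SE 0.19, adjusted p = 0.0287). In saline skin Ifi27 lay between 948 and 1648 normalized counts with a median of 1173, against 1373 to 1857 (median 1666) at 2 weeks, 1291 to 1811 (median 1570) at 4 weeks, 1254 to 1681 (median 1502) at 6 weeks of recovery and 1112 to 1624 (median 1313) at 10 weeks. Ifi27 differed from saline in the fit by log2 differences of 0.44 at 2 weeks (adjusted p = 2.21e-05) and 0.38 at 4 weeks (adjusted p = 0.000173), under the 1.5-fold threshold, and 6 of 10 and 3 of 10 bleomycin mice exceeded the saline maximum. Ifi35 rose 1.62-fold at 4 weeks. Of its exon bases 16.8% overlap a gene on the opposite strand, and the strand setting of the counting is not given in the sources used here. On the same strand, 13.89% of the exon bases of Rtp4 overlap Gm45338 and 13.66% of those of Herc6 overlap Gm45193. Strand cannot separate reads in those stretches. Xaf1, Trim30a, Parp14 and Sp100 rose 3.78-, 3.31-, 2.48- and 2.51-fold at 4 weeks and had log2 differences between 0.06 and 0.16 at 10 weeks of recovery.

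Return to the saline level was judged by the 95% interval of the log2 difference, because a difference that misses the threshold need not be a return. At 6 weeks of recovery 10 genes were still higher (Ifit1, Ifit3, Ifit3b, Isg15, Usp18, Mx2, Oasl2, Ifi44, Bst2 and Rtp4), 12 had an interval wholly within 1.5-fold of saline (Mx1, Oas1b, Irf9, Stat2, Ifi35, Ifi27, Ddx58, Ifih1, Parp14, Uba7, Herc6 and Eif2ak2), and 14 could not be assigned to either. At 10 weeks 3 were still higher (Ifit1, Usp18 and Ifi44), 23 were within 1.5-fold and 10 could not be assigned (Ifit3, Ifit3b, Mx1, Oas1a, Oas2, Oas3, Oasl1, Oasl2, Zbp1 and Rtp4). Those within 1.5-fold at both times numbered 11. Mx1 moved from the second class to the third because its value at 10 weeks lay below saline. Near the threshold at 6 weeks stood Mx2 and Bst2 inside, and Xaf1 outside (log2 difference 0.52, adjusted p = 0.00725, under 1.5-fold). Several of these calls rested on single mice, as found by leaving out each of the 44 in turn. At 6 weeks Ifit1, Ifit3, Ifit3b, Usp18, Ifi44 and Rtp4 were called in every omission. Isg15, Mx2, Oasl2 and Bst2 were all lost without 6-week recovery replicate 1, which left 6 genes called. Mx2, Oasl2 and Bst2 were each lost without 6-week recovery replicate 6 too, and without some other mice. Oas1a was gained in some omissions, such as that of saline replicate 10 (log2 difference 0.80, limma adjusted p = 0.0228). At 10 weeks Ifit1 and Usp18 were called in every omission, Ifi44 was lost without saline replicate 8 or recovery replicate 2 and also with edgeR in place of limma (adjusted p = 0.0565), and Ifit3 and Ifit3b were both gained without saline replicate 2, saline replicate 10 or recovery replicate 8, which gave 5 genes.

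**Figure D3:**
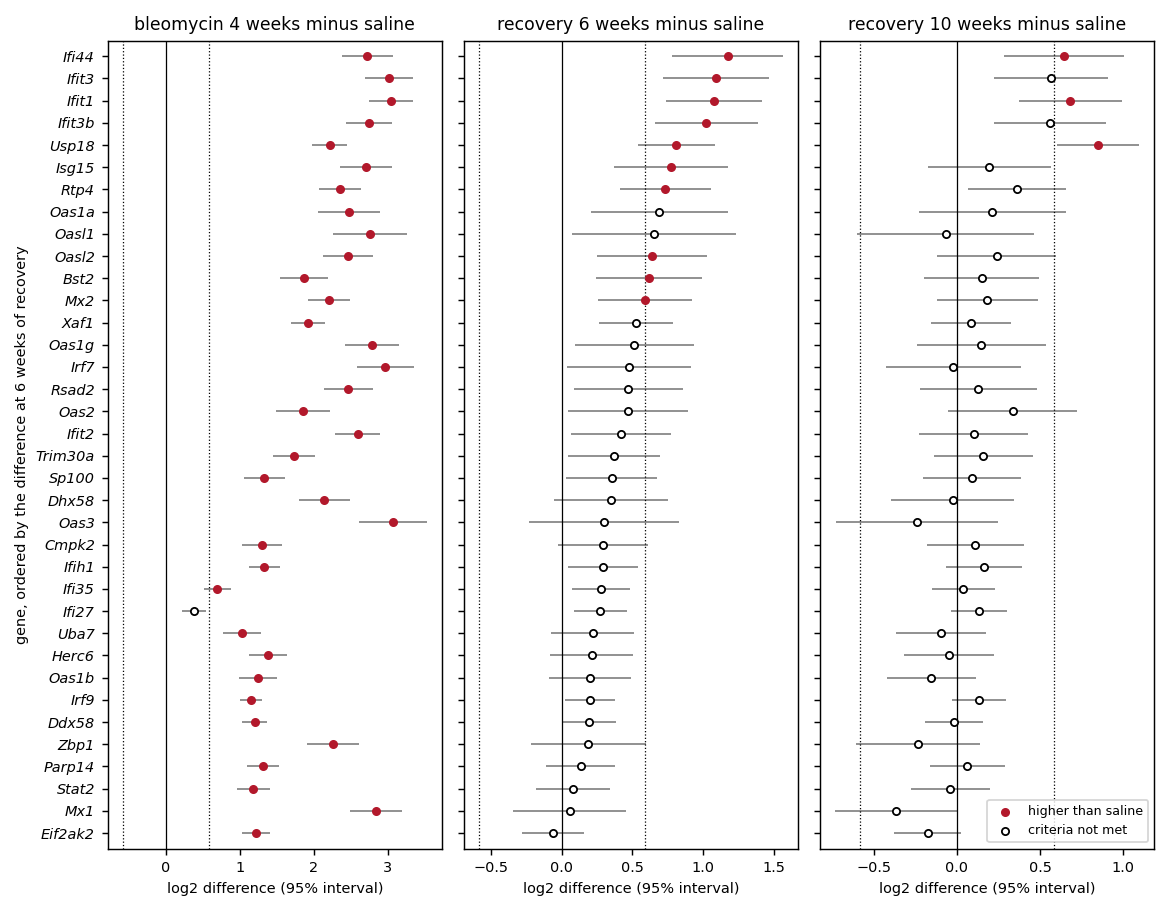
Log2 differences from saline with 95% intervals for the 36 genes at 4 weeks of bleomycin, 6 weeks of recovery and 10 weeks of recovery, ordered by the difference at 6 weeks of recovery; each panel has its own axis. Filled red points are genes called higher (35, 10 and 3 from left to right) and dotted lines mark 1.5-fold; at 10 weeks the filled points are Ifit1, Usp18 and Ifi44.

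A large rise did not always go with a level that stayed up. Ifit1 and Mx1 had similar rises at 4 weeks (log2 differences 3.05 and 2.84) but stood at 0.68 and -0.36 at 10 weeks of recovery. The pair was picked after its values were seen, so the following is a description without a test. Within single mice the log2 ratio of Ifit1 to Mx1 was -0.56 to 0.54 in saline skin (median 0.28), -0.22 to 0.67 at 2 weeks (median 0.24) and -0.12 to 0.73 at 4 weeks (median 0.33). In recovery it was 0.82 to 1.35 at 6 weeks (median 1.20) and 0.86 to 1.53 at 10 weeks (median 1.20), above every mouse of the other 3 groups. Usp18 to Mx1 ran from -0.72 to 0.94 in saline skin, from -0.86 to -0.08 at 2 weeks, from -0.88 to 0.02 at 4 weeks, from 0.69 to 1.27 at 6 weeks of recovery and from 0.90 to 1.97 at 10 weeks. A ratio within a mouse does not depend on how the libraries were scaled.

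**Figure D4:**
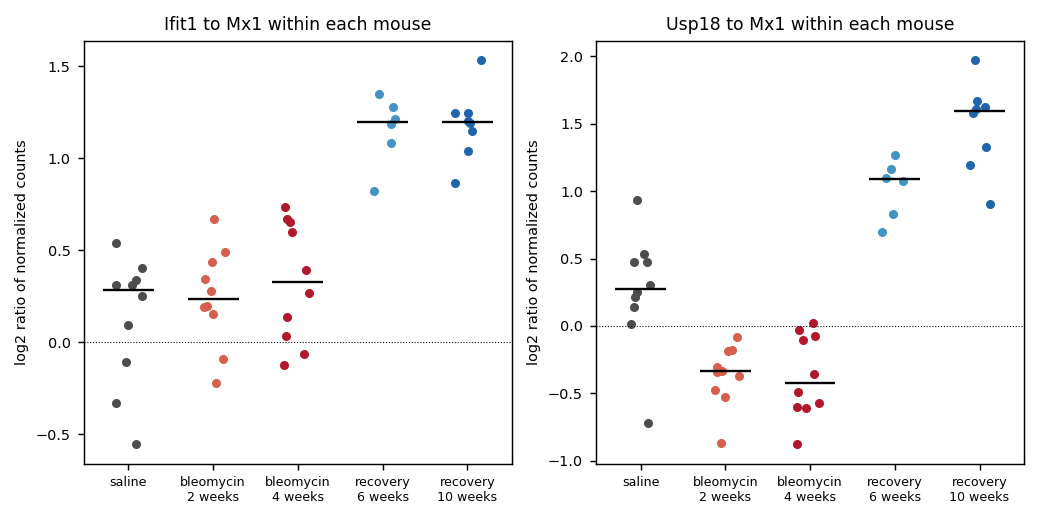
Log2 ratio of the normalized counts of Ifit1 to Mx1 (left) and of Usp18 to Mx1 (right) within each of 44 mice, 1 point per mouse with a bar at the group median. On the left the 14 recovery mice lie between 0.82 and 1.53, above all 30 saline and bleomycin mice, which end at 0.73; on the right 1 saline mouse at 0.94 overlaps the recovery mice.

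Between 2 and 4 weeks of bleomycin no gene of the 36 was called by limma, edgeR or DESeq2 (2.35% of all tested genes were called in either direction by limma). Without the fold threshold, 0 genes passed the adjusted p by limma, 2 by edgeR and 5 by DESeq2. At an unadjusted p below 0.05, 13 genes differed by limma, where 20.8% of all tested genes did, and 16 by each count tool. By limma 2 of the 36 had a log2 difference above 0. The median log2 difference was -0.19 and the range -0.53 (Oas3) to 0.06 (Ifit3b). Sp100 had the smallest unadjusted p, with a log2 difference of -0.43 and an adjusted p of 0.0554. Between 6 and 10 weeks of recovery none was called by any of the 3 tools either (0.088% of all tested genes in either direction by limma), and 16 had an unadjusted p below 0.05 by each, where 12.0% of all tested genes did by limma. The median log2 difference was -0.36, from -0.72 for Oasl1 to 0.04 for Usp18, and Usp18 was the 1 gene with a value above 0. Xaf1 had the smallest unadjusted p of that comparison (log2 difference -0.44, adjusted p = 0.217).

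Mice of a group tended to be high or low for many of the genes at once. The mean log2 value over the 36 genes ran from 6.56 to 7.57 in saline mice (median 7.22), from 8.80 to 9.90 at 2 weeks, from 8.71 to 9.49 at 4 weeks, from 7.40 to 7.88 at 6 weeks of recovery (median 7.60) and from 7.05 to 7.60 at 10 weeks (median 7.29). Saline replicate 1 was the lowest of the 10 saline mice in 25 genes and saline replicate 10 the highest in 20. At 2 weeks replicate 2 was highest in 20 genes and replicate 7 lowest in 22, and at 4 weeks replicate 4 was highest in 23 and replicate 3 lowest in 21. Replicate 1 was highest in 22 genes at 6 weeks of recovery and replicate 2 in 24 genes at 10 weeks. Libraries held 8509094 to 15285577 reads. Saline replicate 1 and 2-week replicate 2 correlated least with their own groups over all genes, and without both the counts of genes higher than saline were 35, 35, 9 and 3 in the order of the groups, with Mx2 lost at 6 weeks of recovery (log2 difference 0.57).

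Interferon transcripts themselves were at the limit of detection. None of 20 genes for type I and type III interferons reached a mean normalized count above 3, so none was tested. Ifnb1, the interferon beta gene, had 2 reads over the 10 mice of the 2-week group, 7 over the 4-week group, 1 over the 10-week recovery group and 0 elsewhere, and never more than 2 in a mouse. A mouse at or under 3 reads cannot be told from 0. Of the 20 only Ifnk passed that limit in a mouse, with 6 reads. Ifnk had 7 reads over the 2-week group, 10 over the 4-week group, 3 over the 10-week recovery group and 0 elsewhere. Ifnz, with at most 3 reads in a mouse, had 8 over the saline group, 0 at 2 weeks and 9 at 4 weeks. It had 2 over each recovery group. Ifng, for interferon gamma, had 23, 48, 32, 6 and 12 reads over the mice of the 5 groups. Of 6 receptor chains, Ifnar2 rose at 2 weeks (log2 difference 0.83, adjusted p = 5.83e-06) and 4 weeks (0.60), and Il10rb, which serves the type III receptor, at 2 weeks (0.67). In recovery no receptor chain was called by limma, edgeR or DESeq2, with 1 of 6 at an unadjusted p below 0.05 at each time. Among the signalling genes given here, Irf1 rose at 2 weeks (log2 difference 0.73). Socs3 and Ptpn6 rose among 6 negative regulators. Upstream sensing genes rose in 14 of 18 cases at 2 weeks and 8 of 18 at 4 weeks, among them Tlr7 (1.60 and 1.36) and Tmem173, which encodes STING (1.02 and 0.69), both named after their values were seen. None of the 18 was called in recovery by limma, against 0 and 3 at an unadjusted p below 0.05 at 6 and 10 weeks. At 10 weeks edgeR called 1 and DESeq2 called 2. The limma log2 differences of the 18 from saline at 10 weeks ran from -0.741 to 0.118 (median -0.081), so none was raised past 1.5-fold. Of 21 other interferon-stimulated genes tested, 20 rose at both times, 1 was called at 6 weeks of recovery (Lgals3bp, 0.68) and 0 at 10 weeks by any of the 3 tools (1 at an unadjusted p below 0.05).

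Markers of immune cells moved over the same period, and their part in the rise was not tested. All 3 leukocyte genes (Ptprc, Laptm5 and Coro1a) rose at both bleomycin times, with summed normalized counts of 1908 to 4450 in saline skin, 4758 to 17000 at 2 weeks, 3736 to 11470 at 4 weeks, 2902 to 3804 at 6 weeks of recovery and 2481 to 3583 at 10 weeks. In recovery none of the 3 was called, also not at an unadjusted p below 0.05 or by edgeR or DESeq2, and their median log2 difference was -0.01 at 6 weeks and -0.31 at 10 weeks. Macrophage and monocyte genes rose in 6 of 8 cases at 2 and 4 weeks; their summed counts were 8508 to 22350 in saline skin, 22840 to 44890 and 19450 to 36960 under bleomycin, and 12710 to 18760 and 10290 to 15690 in recovery. Neutrophil genes rose in 5 of 5 cases at 2 weeks and 3 of 5 at 4 weeks, where edgeR and DESeq2 each called 4. T and NK cell genes rose in 7 and 4 of 10, and B cell genes in 3 and 2 of 3 (2 and 1 by edgeR and by DESeq2). In recovery limma called 1 neutrophil gene lower at 6 weeks (0 by edgeR) and 2 at 10 weeks. Of T and NK cell genes, 2 were lower at 10 weeks by limma, and edgeR and DESeq2 each called 3. Over all tested genes 1.71% and 0.998% were called lower than saline at 6 and 10 weeks of recovery. Of the plasmacytoid dendritic cell list, Siglech had limma log2 differences of -0.40 at 2 weeks (adjusted p = 0.286) and -0.70 at 4 weeks (adjusted p = 0.0476). In recovery the differences of Siglech were -2.03 at 6 weeks (adjusted p = 4.97e-05) and -1.65 at 10 weeks (adjusted p = 0.000497). Siglech was thus below saline at 4 weeks and in both recovery groups; it was singled out after its values were seen. The list did not move together: Ccr9 and Klk1 rose at both bleomycin times, and Cox6a2 was higher at both recovery times. Mean normalized counts of Ccr9 were 18.45 in saline skin, 34.78 at 2 weeks and 29.86 at 4 weeks. Those of Klk1, low throughout, were 1.292, 9.677 and 6.385. In saline skin Ly6d (mean 5261) and Cox6a2 (1165) far exceeded Siglech (40.67). Whether they came from such cells was not tested. Summed counts of the 6 genes, mostly Ly6d, are therefore no measure of these cells. They were 5243 to 8763 in saline skin and 6922 to 8886 at 6 weeks of recovery. All 4 hair follicle genes tested were lower at 2 and 4 weeks (summed counts of 1896 to 192000 in saline skin, 28.7 to 1606 at 2 weeks and 26.6 to 4368 at 4 weeks). Over all tested genes 7.43% were called lower than saline at 2 weeks and 7.37% at 4 weeks. Fibroblast genes were lower by limma in 3 of 5 cases at 2 weeks and 1 of 5 at 4 weeks and each recovery time. At 10 weeks of recovery edgeR called 1 and DESeq2 called 3, and 3 had an unadjusted p below 0.05 by limma. At 2 weeks 2 of 3 adipocyte genes were lower by limma and DESeq2 and 0 by edgeR (2 at an unadjusted p below 0.05 by limma). At 4 weeks 1 was lower. Of 3 endothelial genes, 1 was higher at 2 weeks, 1 at 4 weeks and 2 at 6 weeks of recovery. At 10 weeks of recovery none of these was called by limma, edgeR or DESeq2, and 2 had an unadjusted p below 0.05 by limma. Of keratinocyte and skeletal muscle genes none was called at any of the 4 times by limma, edgeR or DESeq2. At most 1 of either list had an unadjusted p below 0.05 by limma.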

How the data were processed

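Per the labels, RNA of 1 back skin biopsy from each of 44 mice went into stranded mRNA libraries. The authors used STAR 2.4.0 on mm10 and DESeq2 1.12.3, and deposited 1 table of normalized read counts (a signal: counts divided by 1 size factor per mouse); the counting tool and strand setting are not given in the sources used here. The columns step in whole reads, which gave 8509094 to 15285577 reads per mouse.

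Genes with a mean above 3 (17037 of 43411) were fitted by limma 3.58.1 with a trend (R 4.3.3) on log2(normalized count + 1) over 5 groups, so fold changes of low genes are understated. A call needed a fold change above 1.5 and a Benjamini-Hochberg adjusted p below 0.05 over all 17037 genes. The replicates are separate mice; equal replicate numbers across groups did not pair them. Alternatives were edgeR 4.0.16 and DESeq2 1.42.0 on recovered reads, a pseudocount of 0.1, no filter, TMM factors, only the groups compared, a replicate block, other fold thresholds, and mice left out. Steps were tested on simulated data.

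The 36 genes, the pathway lists and the marker lists were chosen with earlier results of these data known. Values per group are given for the 2 genes with the largest and the 1 with the smallest rise at 4 weeks in each role, and for every gene still higher in recovery. Symbols and positions come from GENCODE M21 and promoters from RefSeq; 98.9% of gene IDs had a symbol. Some listed genes (Jak2, Ly6g, Tchh) were not analysed here, and a result of the signalling list is not reported here.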

Additional observations from a re-analysis of the deposited data

Results flagged for a closer look

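Single mice stood apart from the rest of their group, by Dixon's criterion at the 95% level, in 12 of 180 sets of values (36 genes in 5 groups), for 11 genes; about 1 set in 20 would be picked out by chance. In saline skin replicate 1 was low for 5 genes: Ddx58 at 255 normalized counts, Ifih1 at 147, Trim30a at 106, Sp100 at 191 and Herc6 at 47.7. Saline replicate 10 was high for 3 genes: Oasl2 at 413, Ifi44 at 59.1 and Bst2 at 531. At 2 weeks of bleomycin, replicate 2 was high for Bst2 at 4796. At 10 weeks of recovery, replicate 3 was low for Isg15 at 59.2, replicate 8 was low for Oas1b at 41.4, and replicate 2 was high for Parp14 at 596.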

How the results depend on the processing

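The 2-week and 4-week rises (35 genes each) and the falls at 6 and 10 weeks of recovery (34 and 35) kept the same counts under every alternative run but the other fold thresholds, also with each of the 44 mice left out in turn, a step added after the data were seen. The 4 counts were 36, 36, 35 and 36 with no fold threshold and 34, 34, 31 and 34 at a log2 threshold of 1. The recovery calls moved. At 6 weeks the count was 4 at a log2 threshold of 1, and 6 to 11 with 1 mouse left out (6 without 6-week recovery replicate 1). At 10 weeks it was 5 with no fold threshold, 0 at a log2 threshold of 1, and 2 to 5 with 1 mouse left out (5 without saline replicate 2, saline replicate 10 or 10-week recovery replicate 8). At that threshold of 1 the fold, not the p, ended the calls. Mx2 at 6 weeks fell to 0.57 (adjusted p = 0.0195) without saline replicate 1 and 2-week replicate 2, and Ifi44 at 10 weeks to 0.59 with edgeR (adjusted p = 0.0565) and 0.65 with only the groups compared (adjusted p = 0.0927); the cause was not tested. Differences near 0 that changed sign were never called: Mx1 at 6 weeks was -0.016 with edgeR, -0.024 with DESeq2 and -0.053 without those 2 mice; without them Ifit2 and Parp14 at 10 weeks were -0.021 and -0.003, and between 2 and 4 weeks Ifit1, Ifit3 and Oasl1 were 0.035, 0.038 and 0.086. Of the 2304 gene by gene values, 2289 kept direction and call. Equal replicate numbers do not pair the mice: over 78 pairs of groups and numbers the correlation of deviations had a median of -0.0022 (-0.69 to 0.38), and mice correlated best with their own number in 20 of 156 cases. With a replicate block the 10-week count was 4, with Ifit3 gained (0.60, adjusted p = 0.04), and Oasl1, Irf7 and Dhx58 at 10 weeks turned to 0.008, 0.021 and 0.002; no other call changed. Genes under a mean of 3, the interferon genes among them, are beyond what this depth can test.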
